A study of Rattus norvegicus with 15 samples.

Results

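The genes described here are 10 protein-coding genes of the rat mitochondrial genome, chosen by their Ensembl identifiers out of 32545 genes in the count files. They encode subunits of the respiratory chain and of ATP synthase. mt-Nd1 (ENSRNOG00000030644), mt-Nd2 (ENSRNOG00000031033), mt-Nd4 (ENSRNOG00000029707), mt-Nd5 (ENSRNOG00000029971) and mt-Nd6 (ENSRNOG00000029042) encode subunits of complex I. mt-Cytb (ENSRNOG00000031766) encodes cytochrome b of complex III. mt-Co1 (ENSRNOG00000034234), mt-Co2 (ENSRNOG00000030371) and mt-Co3 (ENSRNOG00000030700) encode subunits of complex IV, and mt-Atp6 (ENSRNOG00000031979) encodes a subunit of ATP synthase. Each identifier was found in every file, and 10 of 10 passed the filter on low counts, as did 13676 genes in all. The files hold no gene symbols, so the names are those given with the identifiers in the definition of the gene set. Mitochondrial coordinates, transcript lengths and sequences were not used here, so levels are compared between lines for 1 gene at a time.

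Polyadenylated RNA was sequenced from Rat1a cells, an established rat fibroblast line that the labels describe as normal primary fibroblasts. The cells were grown attached to plastic in high-glucose medium with serum, and 5 stable lines were compared. They carried an empty vector (EV), wild-type mouse MYC (WT), or MYC with a single lysine changed to arginine, K149R (R149), K158R (R158) or K323R (R323). Each line was sampled in 3 biological replicates. With 1 stable line per construct, effects of the line and of the construct cannot be told apart. The EV line carries no introduced MYC, and the rat genes of the host cells, its own Myc among them, were present in every line.

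The mitochondrial genome is a small circular DNA transcribed in both directions into long precursors, from which the tRNAs are cut out so that the mRNAs are released. Of these genes, mt-Nd6 is read from the light strand and the other 9 from the heavy strand. Heavy-strand mRNAs share their precursors and carry short poly(A) tails. In human cells the mt-Nd6 mRNA largely lacks a stable tail. MYC is a nuclear transcription factor. It is known for raising nuclear genes of mitochondrial biogenesis, among them those whose products transcribe and maintain mitochondrial DNA. A level measured here in a pool of cells does not separate the number of mitochondrial genomes per cell from the RNA made from each, and only the polyadenylated part of each RNA enters such libraries.

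Libraries held 13303631 to 108933235 counts. R149 replicate 1 stood apart in gene detection, with 13671 genes expected at the smallest library's depth against 14858 to 15646 in the other 14 libraries. Within the 4 MYC lines, libraries of equal replicate number deviated from their line means together. The level of the introduced Myc and the markers of fibroblasts and of other cell types were not analysed here, because the identifiers are not paired with symbols. The labels of the lines were therefore not checked against the RNA.

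The 10 genes together took up between 1.75% and 3.82% of a library's counts. In EV the share was 3.13%, 2.67% and 2.53% in replicates 1, 2 and 3, and in WT it was 2.71%, 2.01% and 2.81%. In R149 the shares were 2.40%, 1.75% and 1.91%, the lowest of the 5 lines by mean. R158 gave 2.99%, 3.09% and 2.38%. R323 gave 3.82%, 1.91% and 2.20%, so that its replicate 1 held the highest share of the series while its replicate 2 lay near the bottom. The exact 95% binomial interval of each share was narrow (for R158 replicate 1, the shallowest library, 2.98% to 3.00%) and covers counting error only.

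By line the mean share was 2.78% ± 0.31 in EV, 2.51% ± 0.43 in WT, 2.02% ± 0.34 in R149, 2.82% ± 0.38 in R158 and, with the widest spread, 2.64% ± 1.0 in R323 (SD, n = 3). The 3 R149 libraries lay below the 3 EV libraries, while the ranges of WT, R158 and R323 overlapped that of EV. Among the MYC lines, R149 had the lowest share within each of the 3 replicate numbers. In the shares of R149 replicate 1, at 2.40%, and R158 replicate 3, at 2.38%, these lines overlapped. As the genes were chosen with earlier results known, the sum was not tested.

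**Figure D1:**
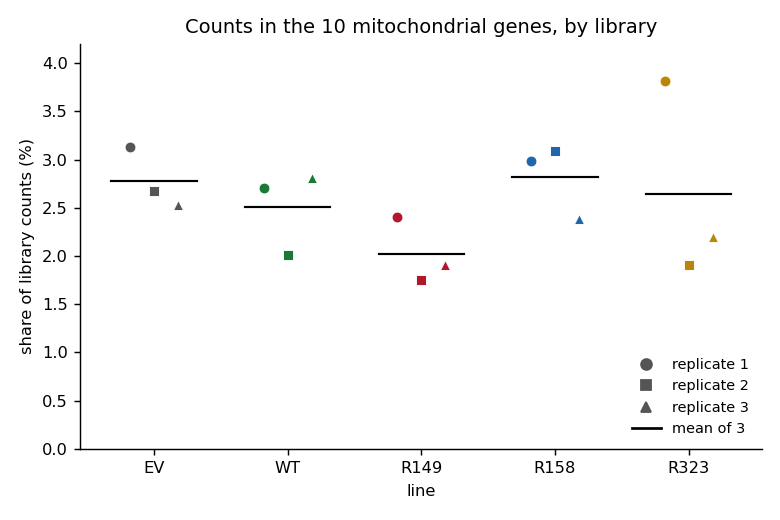
Share of each library's counts that fell in the 10 mitochondrial genes, in percent (vertical axis, from 0), for the 5 lines (horizontal axis). Points are libraries with a marker per replicate number, and bars are means of 3; the R149 libraries sit between 1.75% and 2.40% and R323 replicate 1 sits at 3.82%.

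Among the complex I genes, mt-Nd1, which encodes a subunit of the membrane arm next to the site of ubiquinone, had its highest level in EV. Levels are CPM, counts scaled to a common library size with trimmed mean of M values factors. In EV mt-Nd1 stood at 1833, 1532 and 1455 CPM in replicates 1, 2 and 3. In WT it stood at 1037, 1161 and 1623 CPM. In R149 it stood at 861, 913 and 1027 CPM, below each EV library. R158 gave 1134, 1779.8 and 1323 CPM, and R323 gave 1373, 1004 and 1178 CPM. The mean was 1607 ± 199.9 CPM in EV and 934 ± 84.8 CPM in R149 (SD, n = 3), and neighbours in the order EV, R158, WT, R323, R149 overlapped in each of 4 pairs. For the other genes too, neighbouring lines in the order of means overlapped, except EV and R149 for mt-Nd5.

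mt-Nd4 encodes a proton-pumping subunit of complex I. It stood at 1566, 1362 and 1206 CPM in EV and at 1340, 1138 and 1562 CPM in WT. The R149 libraries held 1085, 857 and 972 CPM, again below each EV library. In R158 the values were 1438, 1669.6 and 1225 CPM, and in R323 they were 1708.5, 1023 and 1149.6 CPM. The other heavy-strand genes of complex I were as variable. mt-Nd2 ranged over the 15 libraries from 1193 CPM in R149 replicate 2 to 2315 CPM in R323 replicate 1. mt-Nd5 ranged from 631.5 CPM in R149 replicate 2 to 1306 CPM in R158 replicate 2. Both encode proton-pumping subunits.

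mt-Nd6, the light-strand gene, had far fewer counts than the heavy-strand genes, between 67 and 746 in a library against at least 13074. Counting error alone was thus up to 12.2% of a value. In EV it stood at 6.16, 5.79 and 3.60 CPM. In WT it stood at 7.59, 8.86 and 31.8 CPM, and WT replicate 3 was 5.07-fold above the median of the other 14 libraries. The R149 libraries held 6.39, 4.62 and 4.65 CPM, the R158 libraries 7.15, 8.92 and 4.30 CPM, and the R323 libraries 7.72, 5.60 and 7.11 CPM. Apart from WT replicate 3, the libraries spanned 3.60 to 8.92 CPM, and the lines overlapped except WT with EV and WT with R149. The strand setting of the counting is not given in the sources used here, so reads of mt-Nd6 and reads of the opposite strand at this gene cannot be told apart.

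In complexes III and IV and in ATP synthase, R323 replicate 1 was the highest library for 4 of 5 genes. For mt-Cytb it held 3533 CPM, with a lowest value of 1425 CPM in R149 replicate 2 and a median of 2075 CPM over the 15 libraries. mt-Co1 encodes the catalytic subunit of complex IV that carries the copper and haem groups where oxygen is reduced. Its levels were 12557, 11161 and 11173 CPM in EV, 13159, 7403 and 10842 CPM in WT, and 12221, 6765 and 7623.5 CPM in R149. In R158 mt-Co1 stood at 15593, 13284.5 and 9677 CPM and in R323 at 19237.5, 7629 and 8625 CPM. Replicate 1 was the highest library in each of the 5 lines for mt-Co1, and the spread within a MYC line was wide, with an SD of 54.4% of the mean in R323 against 6.9% in EV.

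mt-Co2, whose product takes electrons from cytochrome c, ranged from 1889 CPM in R323 replicate 2 to 3808 CPM in R323 replicate 1. mt-Co3, a structural subunit of complex IV, ranged from 1582 CPM in R149 replicate 2 to 3114 CPM in R323 replicate 1. mt-Atp6, part of the proton channel of ATP synthase, had the narrowest range, from 1908 CPM in R323 replicate 2 to 3127 CPM in R158 replicate 2, a ratio of 1.64 between extremes. R149 had the lowest mean of the 5 lines for 9 of the 10 genes, while EV had the lowest for mt-Nd6. For comparison, R149 had the lowest mean for 21.9% of the 13676 genes tested. Without R323 replicate 1 the count for R149 was 4 of 10, and R323 was then lowest for 5. Leaving out any 1 of the other 14 libraries gave 8 to 10 for R149. Among the 4 MYC lines, R149 was lowest for 10, 8 and 7 of 10 genes within replicate numbers 1, 2 and 3. No such count over all genes stands beside it. The 10 genes share libraries and, for the heavy strand, precursors, so they are not independent observations.

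**Figure D2:**
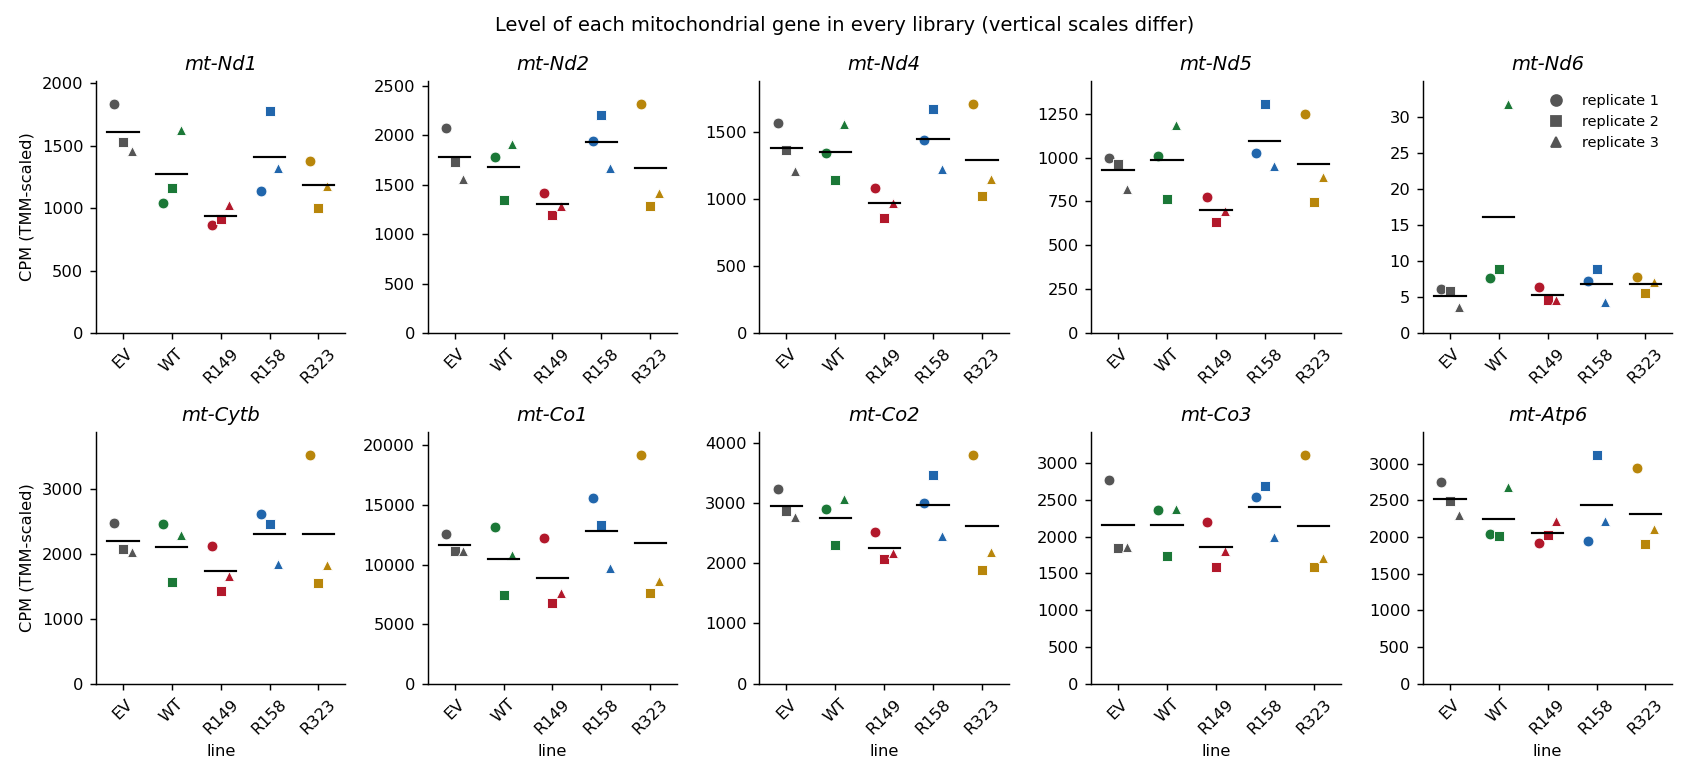
Level of each gene in CPM (vertical axes, each from 0 on its own scale) in the 15 libraries by line (horizontal axis). Points are libraries with a marker per replicate number and bars are means of 3; mt-Nd6 in WT replicate 3 stands at 31.8 CPM, and R323 replicate 1 is above replicates 2 and 3 in each panel.

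The comparison of WT with EV asked whether wild-type MYC changed the mitochondrial RNAs. mt-Nd6 was the 1 gene of the set that was called. Its mean was 5.18 ± 1.38 CPM in EV and 16.1 ± 13.6 CPM in WT (SD, n = 3). WT replicate 3 stood at 31.8 CPM and WT replicates 1 and 2 at 7.59 and 8.86 CPM. The fitted log2 difference was 1.61 with an SE of 0.44, and the Benjamini-Hochberg adjusted p of edgeR's quasi-likelihood test was 0.0135 over all 13676 genes. The 1 gene called of 10 stands beside 26.8% of all genes called in this comparison (12.6% called higher). mt-Nd6 was also the 1 gene of 10 whose WT and EV libraries did not overlap, beside 44.4% of all genes. The call was lost without WT replicate 3, without EV replicate 3 (1.42, edgeR adjusted p 0.0654) and with limma-voom (1.21, adjusted p 0.06), and it was kept in 14 of 17 alternatives. Without WT replicate 3 the log2 fold change was 0.66, with an edgeR adjusted p of 0.107. In that fit mt-Nd1 was called lower, at -0.55 ± 0.18 with an adjusted p of 0.0395, where 24.1% of all genes were called.

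The 9 heavy-strand genes were not called in WT with all libraries in the fit. Their log2 fold changes against EV lay between -0.34 for mt-Nd1 and 0.09 for mt-Nd5, with standard errors of 0.18 to 0.31. The widest 95% interval, that of mt-Co1, reached from -0.82 to 0.51. The median over the 10 genes was -0.07, beside 0.009 over all genes tested, and leaving out 1 library moved it between -0.16 and 0.06.

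The comparison of R149 with EV asked the same of MYC K149R. mt-Nd1 and mt-Nd4, both of complex I, fell in R149, and no gene of the set rose. mt-Nd1 fell to 0.581 of its EV level, -0.78 on the log2 scale with an SE of 0.18 (adjusted p 0.00377 by edgeR). mt-Nd4 fell to 0.705 of its EV level, at -0.50 ± 0.18 with an adjusted p of 0.0395. Of all genes tested, 38.5% were called in this comparison and 20.2% were called lower, so 2 calls of 10 genes are near the background. mt-Nd1 was called in 16 of 16 alternatives, with adjusted p between 0.000186 and 0.017. mt-Nd4 lost its call without EV replicate 1 (-0.41, adjusted p 0.127), EV replicate 2 (-0.51, 0.0801), R149 replicate 2 (-0.43, 0.118) or R149 replicate 3 (-0.50, 0.083), all by edgeR.

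The other 7 heavy-strand genes had log2 fold changes between -0.46 for mt-Nd2 and -0.22 for mt-Co3 in R149, and none passed the test in the fit of 15 libraries. mt-Nd6 had a log2 fold change of 0.00 with an interval from -0.93 to 0.92. The median over the 10 genes was -0.39, beside 0.003 over all genes tested. Without R149 replicate 1 it was -0.51, and 2 genes were again called, beside 32.9% of all genes. Calls outside complex I came with other settings. Without all replicate 1 libraries mt-Co1 was also called lower, at -0.64 ± 0.19 (edgeR adjusted p 0.0178), beside 46.9% of all genes. Fitting only these lines also called mt-Nd2, mt-Nd5, mt-Co2 and mt-Atp6 lower, beside 38.7% of all genes. The R149 and EV libraries did not overlap for 6 genes, namely mt-Nd1, mt-Nd2, mt-Nd4, mt-Nd5, mt-Co2 and mt-Atp6. In the same comparison 54.4% of all genes tested had no overlap, which is close to the 6 of 10 here.

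No gene of the set was called in R158 or R323 against EV. For R158 the edgeR test found 0 of 10 at an adjusted p below 0.05 and 0 at an unadjusted p below 0.05, and DESeq2 and limma-voom called 0 as well, beside 28.5% of all genes called by edgeR. The R158 and EV libraries overlapped for each of the 10 genes, while 44.3% of all genes showed no overlap. The largest difference was that of mt-Nd6, at 0.39 ± 0.45 (log2, SE; edgeR adjusted p 0.54), and the 9 heavy-strand genes lay between -0.19 and 0.24 with intervals within -0.58 and 0.81. For R323 the edgeR test found 0 of 10 after adjustment and 1 at an unadjusted p below 0.05, with 0 by DESeq2 and 0 by limma-voom, beside 29.8% of all genes. The largest difference was that of mt-Nd1, at -0.44 ± 0.18 with an edgeR adjusted p of 0.0835, and its R323 libraries lay below the EV libraries, 1 gene of 10 without overlap beside 49.8% of all genes.

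R323 replicate 1 decided much of the R323 values. With it the median log2 fold change of the 10 genes against EV was -0.05, and without it the median was -0.38. mt-Co2 was then called lower in R323, at -0.53 ± 0.16 with an edgeR adjusted p of 0.0243, 1 gene of 10 where 24.7% of all genes were called. In the same fit mt-Nd1 stood at -0.55 ± 0.20 with an adjusted p of 0.0574. The 4 comparisons with EV share the EV libraries. For mt-Nd1 the log2 fold changes side by side were -0.34 in WT, -0.78 in R149, -0.19 in R158 and -0.44 in R323, and for mt-Co1 they were -0.15, -0.39, 0.14 and 0.02.

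**Figure D3:**
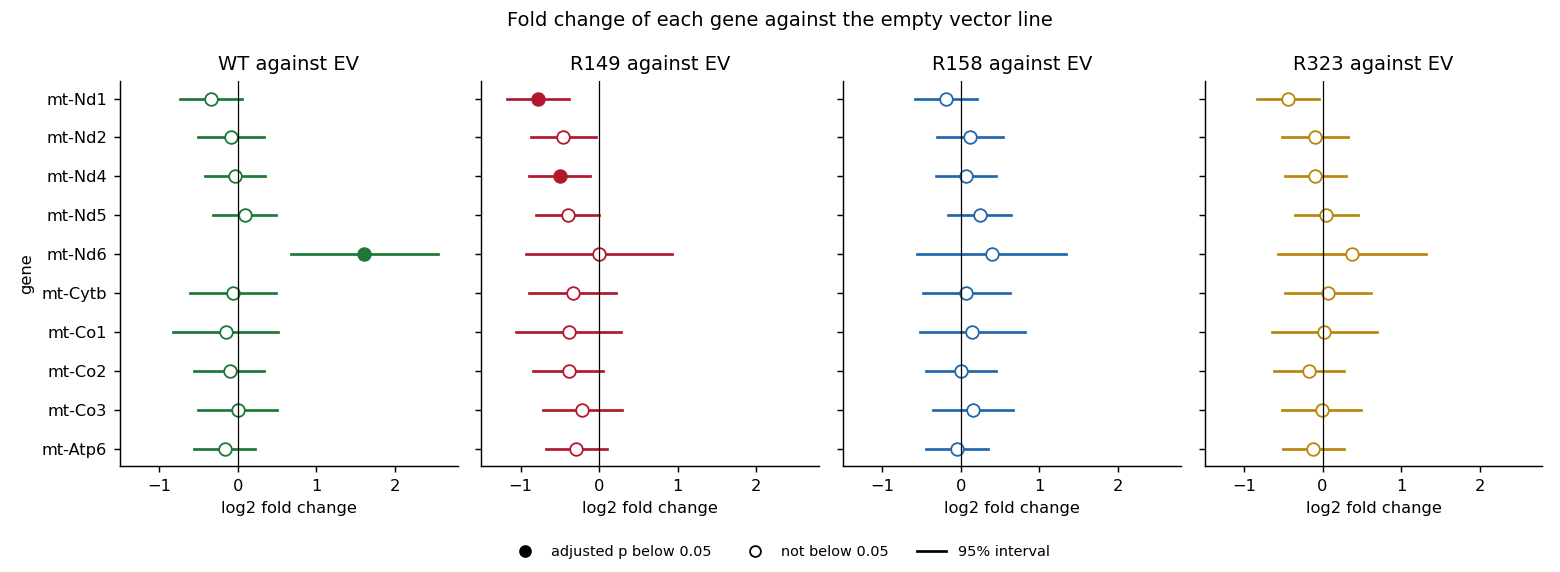
Log2 fold change of each gene against EV (horizontal axes) in WT, R149, R158 and R323, with 95% intervals from the edgeR fit of 15 libraries. Filled points passed an adjusted p of 0.05: mt-Nd6 in WT (1.61), where the call is lost without WT replicate 3, without EV replicate 3 and with limma-voom, and mt-Nd1 (-0.78) and, lost when any 1 of 4 libraries is left out, mt-Nd4 (-0.50) in R149.

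Among the 4 MYC lines no gene of the set was called by edgeR in any of the 6 comparisons with all libraries and the filter on low counts. R149 was the lower line for 10 of 10 genes against WT, against R158 and against R323, with medians of -0.33, -0.47 and -0.37 on the log2 scale. Leaving out 1 library moved these medians between -0.48 and -0.24, between -0.64 and -0.36, and between -0.52 and -0.03. All-gene medians in these comparisons were 0, -0.014 and -0.01. The edgeR test found 0 genes after adjustment in each, and 4, 4 and 2 genes at an unadjusted p below 0.05. DESeq2 called 1 gene (mt-Nd6, at an adjusted p of 0.00715), 1 gene (mt-Nd5, at 0.0494) and 0 genes, where it called 2.9%, 2.44% and 2.14% of all genes. limma-voom called 0 in each. Of all genes tested, 1.18%, 1.27% and 1.07% were called by edgeR in these comparisons.

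Against WT the largest R149 difference was that of mt-Nd6, at -1.62 ± 0.43 (log2, SE) with an edgeR adjusted p of 0.0938, and it was -0.67 without WT replicate 3. Without WT replicate 1 it was called, at -1.97 with an edgeR adjusted p of 0.0159, where 2.59% of all genes were called. With no filter on low counts it was called too, at -1.61 with an adjusted p of 0.0242, beside 1.02% of all genes. The heavy-strand genes lay between -0.49 for mt-Nd5 and -0.12 for mt-Atp6. The R149 and WT libraries did not overlap for mt-Nd1, mt-Nd4 and mt-Nd6, 3 of 10 genes beside 16% of all genes tested. Against R158 the largest difference was that of mt-Nd5, at -0.64 ± 0.19 with an edgeR adjusted p of 0.152. The R149 and R158 libraries did not overlap for 4 of 10 genes, mt-Nd1, mt-Nd2, mt-Nd4 and mt-Nd5, beside 14% of all genes. These are the heavy-strand genes of complex I in the set, at -0.57 to -0.64. The libraries overlapped for mt-Co1, although its difference was close to theirs, at -0.53 ± 0.31.

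Against R323 the largest R149 difference was that of mt-Nd5, at -0.45 ± 0.19 with an edgeR adjusted p of 0.382, and 0 of 10 genes had libraries without overlap, beside 20.3% of all genes. The median of -0.37 became -0.03 without R323 replicate 1, with 5 genes lower and 5 higher in R149. That fit kept R149 replicate 1, the library of equal number. Without all replicate 1 libraries the median was -0.15, with 7 genes lower and 3 higher in R149. No gene of the set was then called, beside 3.96% of all genes. The size of the lower median thus depended on the replicate 1 libraries. The paired deviations of the MYC lines call for the replicate number as a block. With it the medians of R149 against WT, R158 and R323 were -0.33, -0.50 and -0.35. Again 0 genes were called, beside 3.73%, 2.79% and 2.21% of all genes, and 5, 8 and 2 genes had an unadjusted p below 0.05. The lowest edgeR adjusted p were 0.0669 for mt-Nd6 against WT, 0.0686 for mt-Nd5 against R158 and 0.213 for mt-Nd5 against R323.

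For the comparison of R158 with WT, the heavy-strand genes lay between 0.10 and 0.30, and mt-Nd6 had the largest difference at -1.22 ± 0.44 with an edgeR adjusted p of 0.311. The median of 0.14 was 0 without WT replicate 2 and -0.01 without R158 replicate 2, with 5 genes higher and 5 lower in both fits. For R323 the heavy-strand genes lay between -0.10 and 0.18, and mt-Nd6 again had the largest difference at -1.24 ± 0.43 with an adjusted p of 0.325. Without R323 replicate 1 the R323 values were below WT for 10 of 10 genes, with a median of -0.31 in place of -0.02, and without R323 replicate 2 the median was 0.14. Without WT replicate 3 the mt-Nd6 difference was -0.28 for R158 and -0.28 for R323. The edgeR test found 0 genes in both comparisons and 1 gene in each at an unadjusted p below 0.05, and DESeq2 and limma-voom called 0, beside 0.6% and 0.892% of all genes called by edgeR. Libraries without overlap were found for 0 of 10 genes in both, beside 13% and 13.7% of all genes. Between R158 and R323 the largest difference was that of mt-Nd1, at 0.25 ± 0.18 with an edgeR adjusted p of 0.507. That comparison had 0 genes at an unadjusted p below 0.05 and 0 by DESeq2 or limma-voom, beside 0.936% of all genes called, and 0 of 10 genes without overlap, beside 19.5% of all genes. Its median of 0.16 was 0.42 without R323 replicate 1, with 6 genes at an unadjusted p below 0.05 and 0 called by edgeR. It was -0.03 without R323 replicate 2, with 7 genes lower in R158. A p above the threshold does not show that levels were equal, and the heavy-strand intervals for these 3 comparisons reached from -0.55 to 0.96.

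The genes were also compared with each other within a library, which removes the scaling against nuclear RNAs. For each gene, the mean log2 count of the other heavy-strand genes was subtracted from its own log2 count, a reference chosen after the data were seen. On this scale mt-Nd1 stood at -0.54, -0.56 and -0.55 in EV replicates 1, 2 and 3. In WT it stood at -1.21, -0.63 and -0.64, in R149 at -1.26, -0.80 and -0.78, in R158 at -1.16, -0.69 and -0.66, and in R323 at -1.23, -0.75 and -0.70. Each of the 12 MYC libraries lay below the 3 EV libraries. mt-Nd1 was the only gene of the 10 with such a separation, beside 10.4% of all genes set against the mean of the heavy-strand genes. Genes outside the set carry the swing of the heavy-strand genes between libraries on this scale. For the heavy-strand genes themselves that shared swing is removed. The 10.4% is thus not a like background, and 1 of 10 cannot be judged by it.

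The relative levels also differed by replicate number within the MYC lines. In replicate 1 of the 4 MYC lines mt-Nd1 lay between -1.26 and -1.16, and in replicates 2 and 3 it lay between -0.80 and -0.63. mt-Co1 lay between 2.92 and 3.09 in replicate 1 and between 2.38 and 2.57 in replicates 2 and 3. mt-Cytb lay between 0.19 and 0.30 against -0.16 and 0.01, and mt-Atp6 between -0.28 and 0.04 against 0.17 and 0.49. In replicate 1 of the MYC lines mt-Co1 and mt-Cytb were thus relatively high and mt-Nd1 and mt-Atp6 relatively low. There was no overlap for these 4 of 10 genes, beside 6.05% of all genes set against the heavy-strand mean. That share too is not a like background, for the reason given above. EV replicate 1 did not share this order for mt-Co1, which stood at 2.59 in it and at 2.66 and 2.76 in EV replicates 2 and 3. Nor did mt-Nd1 (-0.54 against -0.56 and -0.55) or mt-Cytb (-0.04 against -0.07 and 0) follow it. mt-Atp6 was lowest in EV replicate 1, at 0.13 against 0.22 and 0.20, the same direction as in the MYC lines. The labels do not say what libraries of equal number share, and this pattern was noticed in these data and not tested.

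For the genes without such a split, line means on the relative scale were as follows. mt-Nd2 averaged between -0.41 and -0.31 and mt-Nd4 between -0.89 and -0.72 in the 5 lines. mt-Co2 averaged between 0.33 and 0.48, and mt-Co3 between -0.09 and 0.16. mt-Nd5 averaged between -1.44 and -1.24. mt-Nd6, set against the other 9 genes, averaged -8.80 ± 0.31 in EV and -7.34 ± 0.98 in WT (log2, SD, n = 3). The R149 mean was -8.34 ± 0.15, the R158 mean -8.48 ± 0.33 and the R323 mean -8.24 ± 0.30. It made up 0.115% of the counts of the 10 genes in WT replicate 3 and at most 0.0456% in the other 14 libraries.

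**Figure D4:**
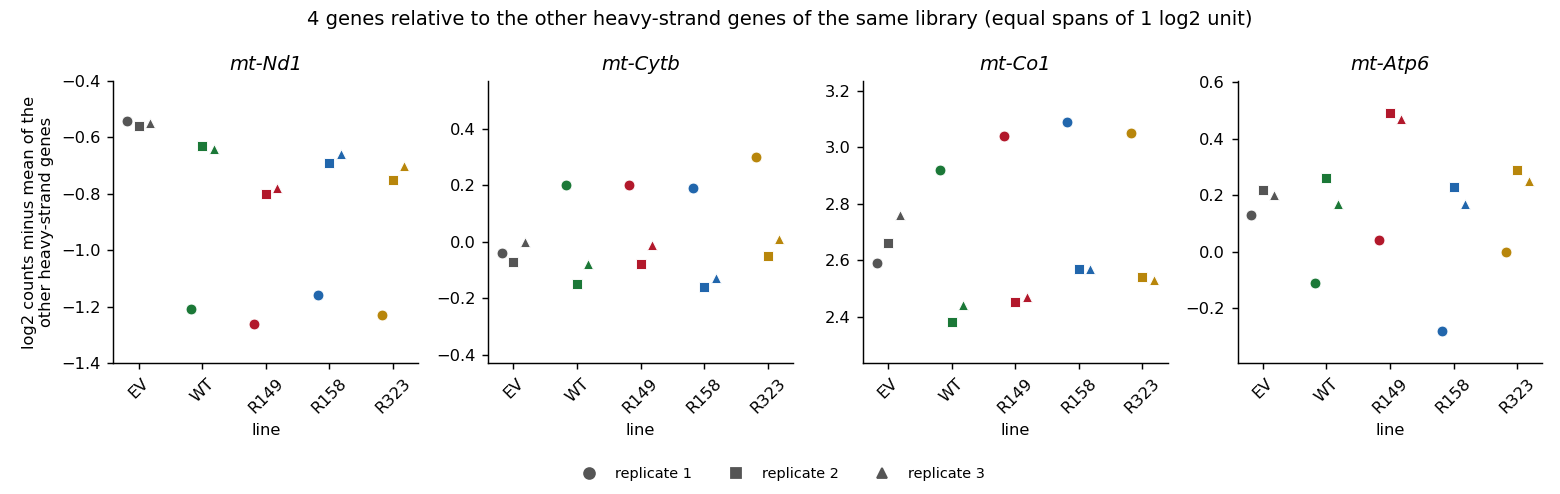
Log2 count of mt-Nd1, mt-Cytb, mt-Co1 and mt-Atp6 minus the mean of the other heavy-strand genes in the same library (vertical axes, equal spans), by line (horizontal axis) with a marker per replicate number. In the 4 MYC lines replicate 1 lies apart from replicates 2 and 3 for each of these genes, and mt-Nd1 is below the EV libraries in 12 of 12 MYC libraries.

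Outside the set, the genes with the pattern most like the mean of the 10 were ENSRNOG00000031053 and ENSRNOG00000058589. The files do not pair them with names, and whether they too are mitochondrial was not determined. Likeness was the mean absolute difference in centred log2 CPM from that mean over the 15 libraries, where 0 is identity. It was 0.109 and 0.114 for these genes and 0.336 at the median of 13676 genes. Within the set it ranged from 0.0514 for mt-Nd4 to 0.368 for mt-Nd6, which was less like the mean than a typical gene, although the set's own genes enter the mean. ENSRNOG00000031053 stood at 124 ± 16.9 CPM in EV and 86.6 ± 20.8 CPM in R149 (SD, n = 3). ENSRNOG00000058589 stood at 82.5 ± 13 and 52.5 ± 10.5 CPM. Both were chosen for likeness over these same libraries, so their levels are a description with no test.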

How the data were processed

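Per the submitters' processing notes, reads were handled with TopHat2 2.1.0 and the rat build Rnor_6.0. How reads were counted, whether by strand and with which annotation, is not given in the sources used here. The deposited values are raw counts per Ensembl gene, 1 file per library, with 32545 rows and no normalization. Libraries held 13303631 to 108933235 counts. Genes were filtered with filterByExpr at a minimum of 10 counts. In R 4.3.3, edgeR 4.0.16 fitted 15 libraries with TMM factors, line as the sole term and quasi-likelihood tests of 10 contrasts. P-values were adjusted by Benjamini-Hochberg over 13676 genes, with 0.05 as the threshold for a call. Standard errors were derived from the F statistic. Log2 CPM used a prior count of 2. The procedure was tested on simulated counts drawn independently for each library. Deviations shared by libraries of equal number were not simulated. DESeq2 1.42.0 and limma 3.58.1 were alternatives. Replicates are biological per the labels; chi-square per degree of freedom between them was 4.43 or more, so none was treated as a duplicate. Libraries of equal number deviated together in the 6 contrasts among MYC lines (correlation 0.13 to 0.54, above the minimum of 0.1 in every pair). No contrast with EV met that minimum in every pair. Correlations there were 0.0052 to 0.21, and the contrast of WT with EV came nearest, at 0.099 to 0.21. Full statistics are printed for genes called in a contrast, or else for the gene with the largest change. The genes, lists and tests were chosen with earlier results of these data known. Lists of nuclear respiratory chain and mitochondrial RNA genes were drawn up by symbol, and 0 reference genes carried an Ensembl identifier, so these lists were not analysed here.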

Additional observations from a re-analysis of the deposited data

How the results depend on the processing

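The number of genes called was within 1.5 times that given in the report in 156 combinations of contrast and alternative and outside it in 16. Most of the 156 are contrasts with 0 calls in both fits. For the contrasts with calls it was within that factor in 15 of 17 alternatives (WT against EV) and 10 of 16 (R149 against EV). Only numbers were compared, not genes. Without WT replicate 3 the 1 gene called in WT was mt-Nd1, lower, in place of mt-Nd6. For WT against EV, limma-voom called 0 genes, and leaving out a library gave 0 to 1. For R149 against EV, library size alone called 4 of 10 (37.4% of all genes), fitting only these lines called 6 (38.7%), and leaving out a library gave 1 to 2. For R323 against EV, 1 gene (36.4% of all genes) was called with only these lines in the fit. Without all replicate 1 libraries 1 gene (42.8%) was called, and leaving out a library gave 0 to 1. For R149 against WT, 1 gene was called with no filter (1.02% of all genes), with DESeq2 (2.9%) and without all replicate 1 libraries (9.59%). Leaving out a library gave 0 to 1 there. For R149 against R158, DESeq2 called 1 (2.44% of all genes). The median of R149 against R323 ranged from -0.52 to -0.03 when a library was left out. Without mt-Co1 the mean share of counts was 1.59% in EV, 1.46% in WT, 1.16% in R149, 1.57% in R158 and 1.46% in R323. With the replicate number as a block, 1 gene was called in WT (36.4% of all genes) and 3 in R149 (48.2%) against EV. Without the block these shares of all genes were 26.8% and 38.5%, so the background of calls rose as well. By the minimum correlation of 0.1 in every pair, the contrasts with EV did not call for such a block. WT with EV missed that minimum narrowly, at 0.099. In the other 8 contrasts the block gave 0 genes of the set, beside 1.78% to 39% of all genes. Of 15 libraries, 12 correlated best with their own number. Scaling without the 10 genes changed no call. The cause of these changes was not tested.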
